A study of Mus musculus with 4 samples.

Results

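The nuclear genes that copy, transcribe and stabilise the mitochondrial genome were read in cultured pieces of the mouse aorta-gonad-mesonephros region (AGM), the region in which the first haematopoietic stem cells arise. The 10 genes were chosen by symbol from their textbook roles, with earlier results of these data known. All 10 were found among the 49997 genes of each deposited table. RNA was sequenced from 4 libraries of C57BL/6J tissue, dissected at E10.5 and E11.5 (days of embryonic age) according to the growth protocol and then kept on filters between medium and air for 48 hours, with hydrocortisone in the medium. The untreated group held 2 libraries, and the other group held 2 libraries from explants kept for those 48 hours with 5 µM CCCP, a protonophore that lets protons leak across the inner mitochondrial membrane and so collapses its potential. The labels do not say how many embryos stand behind a library, or whether replicates came from separate cultures, so the spread between replicates may be technical. The design text names c-kit+ stem cells, whereas RNA was extracted from explants according to the protocol, and the values below are those of a whole library of mixed cells.

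Mitochondrial DNA is a small circle that encodes subunits of the respiratory chain and the RNAs needed to translate them. It is copied by a dedicated set of proteins made in the cytosol: DNA polymerase gamma, the Twinkle helicase and a single-stranded DNA binding protein. It is transcribed by a phage-like RNA polymerase together with TFAM, which also packages the circle into nucleoids, and TFB2M, which helps to melt the promoter. Several of the nuclear genes for this machinery are known targets of nuclear respiratory factor 1 and of the GA-binding protein, whose activity is raised by the PGC-1 coactivators.

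Total counts ran from 37360968 to 48827826 reads per library, replicate 1 being the deeper library in each group. Markers of haematopoietic stem and progenitor cells (10 genes), endothelium (7), mesenchyme (6) and kidney and gonad (6) were all detected in every library, as were those of red cells, macrophages, nerve and muscle. Summed levels were lower in both CCCP libraries for the haematopoietic list (170 and 178 CPM, that is counts scaled to library size, without treatment, and 135 and 152 CPM with it). They were higher in both for red cells (1810 and 1988 against 2043 and 2784 CPM), nerve (531 and 532 against 659 and 640 CPM) and macrophages (158 and 109 against 160 and 166 CPM), and the groups overlapped for the other 4 lists outside liver. Gene by gene, both CCCP libraries lay above both untreated ones for 2 of 10 haematopoietic genes and below them for 2. These counts were 2 and 1 of 7 for red cells, 3 and 1 of 5 for nerve, and 2 and 0 of 6 for macrophages. Over all genes the shares were 24.0% above and 24.8% below, so the sums do not stand for whole lists. All 10 hepatic markers lay lower in both CCCP libraries than in both untreated ones (24.8% of all genes did), with a summed level of 863 to 1484 CPM without treatment and 5.17 to 67.3 CPM with it. In tissue of mixed cells, fewer cells of a type and less RNA per cell cannot be told apart. The part of these cells in the values below was not tested.

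None of the 10 machinery genes passed the test between CCCP and untreated explants. In the quasi-likelihood test of edgeR, adjusted by Benjamini-Hochberg over 19837 genes, 0 of 10 had an adjusted p-value under 0.05, where 0% of all genes tested had. At an unadjusted p under 0.05 the count was again 0 of 10, against 14.6% of all genes, and in DESeq2 it was 0 of 10 at an adjusted p under 0.05, against 2.99%. Without a filter on low counts it was 0 of 10 (3.43% of genes), and with the replicate number in the edgeR model it was 0 of 10 (10.7%), or 1 of 10, Polg, with the length trend also removed (8.15%) and 0 of 10 with the GC trend also removed (6.54%). Fold changes were small. The log2 fold changes of CCCP over untreated ran from -0.25 for Ssbp1 to 0.14 for Twnk, with a median of -0.00033, and the edgeR adjusted p-values ran from 0.474 to 0.977. The 95% intervals of all 10 lay between 0.65-fold and 1.59-fold, so that a change beyond those bounds was outside the interval of each gene.

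The median size of the log2 fold change, regardless of sign, was 0.11 for the 10 genes, 0.27 over all genes tested and 0.22 over the 10506 genes whose mean level lay within the range of the 10, from 5.02 to 123 CPM. Of these 10506 genes, 42.6% had a log2 fold change larger in size than that of Ssbp1. In 5 of the 10 genes the groups did not overlap, against 48.8% of all genes. Both CCCP libraries were above both untreated ones for Polrmt and Twnk (2 of 10, against 24.0% of all genes) and below them for Tfb2m, Mterf3 and Ssbp1 (3 of 10, against 24.8%). These shares are close to those of all genes.

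**Figure D1:**
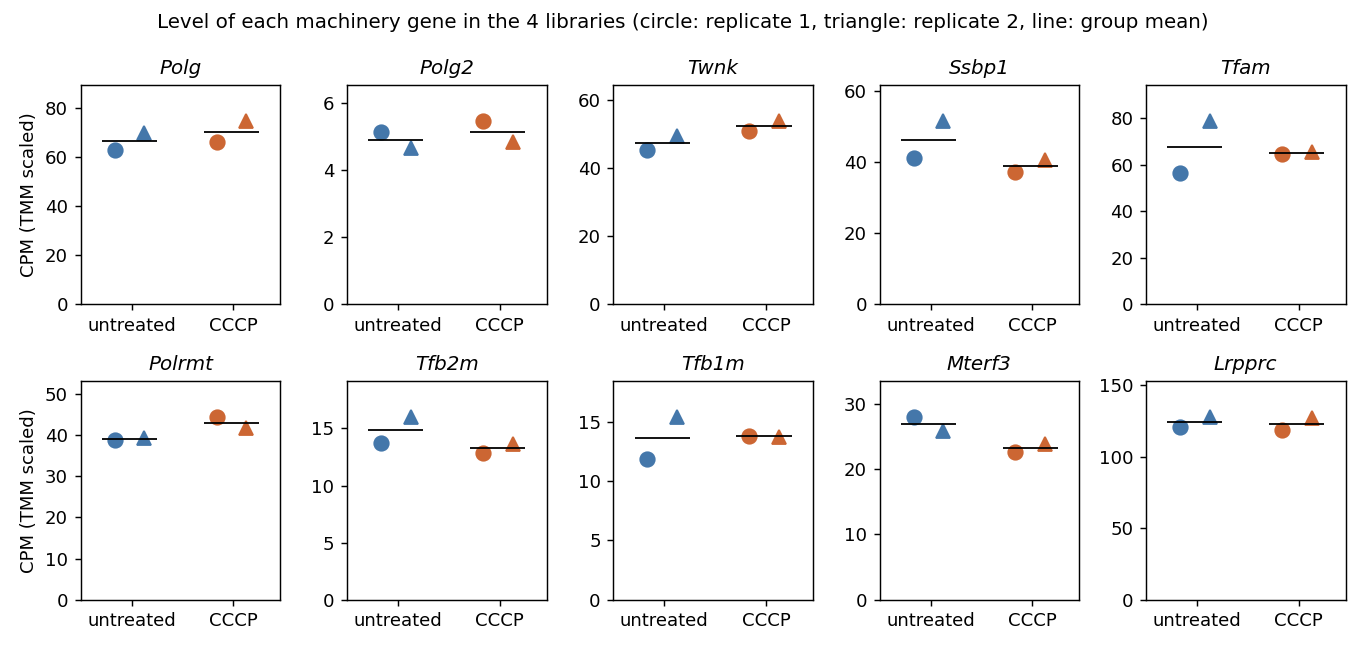
Level of each machinery gene as TMM-scaled CPM (vertical axis, from 0) in the untreated and CCCP libraries, with a point per library and a line at the group mean. Group means lie close together for all 10 genes, and the untreated libraries of Tfam stand further apart, at 56.3 and 78.7 CPM, than the group means do.

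**Figure D2:**
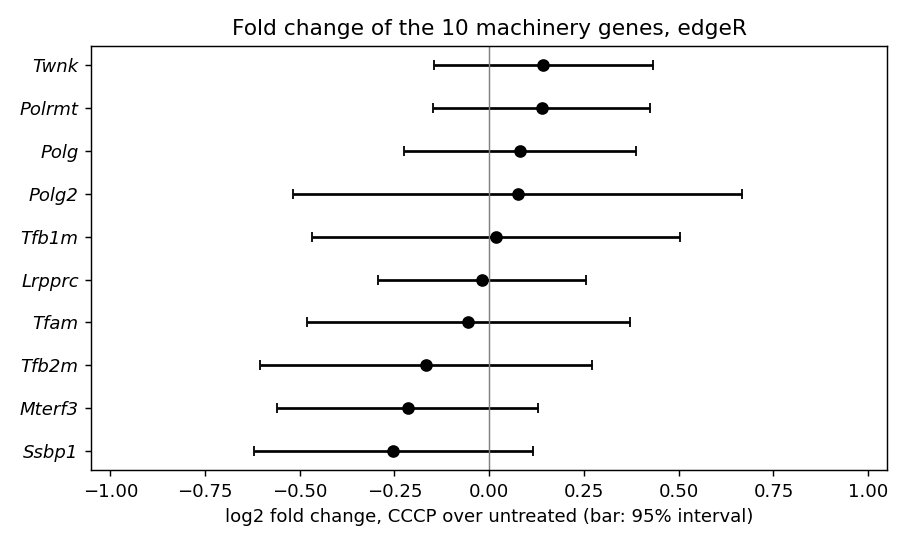
Log2 fold change of CCCP over untreated (horizontal axis) for each machinery gene, with its 95% interval from edgeR. Every interval includes 0, and the widest is that of Polg2, the gene with the fewest counts.

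Levels per length placed the RNA-binding protein gene first and the accessory polymerase subunit last. Per kilobase of exon, Lrpprc stood at 25.7 to 27.6 CPM over the 4 libraries. Tfam (14.0 to 19.6 CPM per kilobase) and Ssbp1 (14.0 to 19.4) followed and overlapped each other. Twnk (10.8 to 12.9) and Polrmt (10.1 to 11.46) came next, also with overlap. Tfb1m (7.005 to 9.08), Polg (6.40 to 7.58) and Mterf3 (5.60 to 6.95) formed a run in which each gene overlapped the next. Tfb2m (4.51 to 5.60) lay just below Mterf3, and Polg2 (1.73 to 2.04) lay below all the others. The ranges of Lrpprc and Tfam, of Ssbp1 and Twnk, of Polrmt and Tfb1m and of Tfb2m and Polg2 did not overlap, and this held over treated and untreated libraries together. The length is that of all annotated exons of a gene merged, which exceeds the longest GENCODE transcript for Mterf3 (4023 against 2353 bases) and Polg (9851 against 7837) and falls short of it for Ssbp1 (2647 against 4398) and Tfb1m (1694 against 2419). Divided by the transcript length instead, an alternative chosen after seeing the data, the middle of the order changed. Ssbp1 (8.43 to 11.7 CPM per kilobase of transcript) then lay below Twnk (13.0 to 15.4), Mterf3 (9.58 to 11.9) went from the eighth place to the fourth, and Tfb1m (4.91 to 6.36) went from the sixth to the ninth. Lrpprc (27.0 to 29.0) and Polg2 (1.71 to 2.001) kept the ends of the order on either length.

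**Figure D3:**
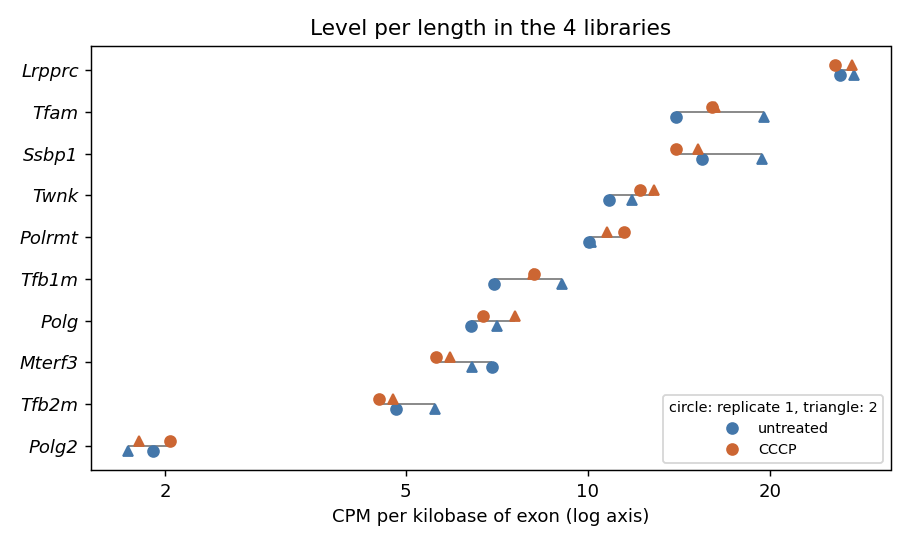
CPM per kilobase of merged exon (log axis) for each machinery gene in the 4 libraries, ordered by the mean. Lrpprc stands highest and Polg2 lowest in every library, and points of the treated and untreated libraries interleave or lie side by side within each gene.

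The start sites of these genes were compared because the family is known for shared regulatory letters. RefSeq promoter windows on GRCm38.p6, the assembly behind mm10, cover 250 bases before and 50 after a start site, and 9 of the 10 genes had a window (Mterf3 was the exception). The letters CCGGAAG, a form of the site read by ETS factors such as the GA-binding protein, are called the ETS core here. They were searched on both strands and were found in windows of 6 of the 9 genes, against 8.86% of all 32851 windows. The longer form CCGGAAGT, which holds the former, was found for 3 of the 9 (Polg, Tfam and Twnk), against 3.89% of windows. These letters and the other motifs below were chosen after the windows had been read. The shares therefore describe the windows and cannot test for an excess. Counts are of genes and shares are of windows, and Twnk had an additional window. Windows with the ETS core held 16 to 32 CG dinucleotides, against a median of 7 over all windows. Without the core, the windows of Tfb1m, Lrpprc and Tfb2m held 16, 24 and 32, and the first window of Twnk held 7. A high CG count was thus not particular to windows with the core. The stretches below are shown because they carry that core; each is 30 bases in the orientation of its gene, 5′ to 3′, with the core in capitals, read as CTTCCGG where it lies on the other strand, and distances counted back from the start site to the first capital.

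Polg, 38 bases upstream, chr7:79466294-79466323 (- strand): ggaggacctcacCCGGAAGtccctctgcac
Polg2, 29 bases upstream, chr11:106779549-106779578 (- strand): gcgggtgacgctCTTCCGGgggcgtggtct
Polrmt, 43 bases upstream, chr10:79746607-79746636 (- strand): accctaagagcgCTTCCGGcagtcgcagaa
Ssbp1, 47 bases upstream, chr6:40471409-40471438 (+ strand): gggctccgtgcgCCGGAAGcgagccgctgg
Tfam, 47 bases upstream, chr10:71238074-71238103 (- strand): tcctgccgcggaCCGGAAGtccgggcttcc
Twnk, 110 bases upstream, chr19:45006436-45006465 (+ strand): actaaccggtgaCTTCCGGttccggggttg
Twnk, 66 bases upstream, chr19:45006480-45006509 (+ strand): tggagagttttgCTTCCGGagtcaccgcga

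In 5 of the 6 genes the core began between 29 and 47 bases before the start site of its window. That start is not always the outermost one of the gene. The cores of Polg, Tfam, Ssbp1 and Twnk lie inside the gene spans given below, and those of Polg2 and Polrmt outside them. Twnk held 2 copies, in the window of its second annotated start. GCGC followed by any base and TGCGC, a sequence bound by nuclear respiratory factor 1, was found for Polrmt alone, against 4.60% of windows. It lay there in 2 overlapping copies, of which the first crosses the start site and the second begins at it. GGGCGG, the box bound by SP1, was found for 7 of 9 genes (35.7% of windows), and AANATGGCG, a core of YY1, for 0 of 9 (2.38%). The whole windows of Polrmt, which held both the ETS core and the sequence of nuclear respiratory factor 1, and of Tfb2m, which held neither in those exact letters, are given for contrast, with those letters in capitals. Shorter or looser forms were not searched, and the Tfb2m window holds parts of both, such as ggaag and gcatgcgc.

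Polrmt promoter, chr10:79746532-79746831 (- strand): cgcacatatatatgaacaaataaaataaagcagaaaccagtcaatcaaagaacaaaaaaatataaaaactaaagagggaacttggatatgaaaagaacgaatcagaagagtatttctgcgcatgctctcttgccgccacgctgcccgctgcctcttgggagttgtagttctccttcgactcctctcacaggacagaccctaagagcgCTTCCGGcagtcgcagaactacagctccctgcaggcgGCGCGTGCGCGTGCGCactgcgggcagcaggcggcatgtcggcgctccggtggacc
Tfb2m promoter, chr1:179546227-179546526 (- strand): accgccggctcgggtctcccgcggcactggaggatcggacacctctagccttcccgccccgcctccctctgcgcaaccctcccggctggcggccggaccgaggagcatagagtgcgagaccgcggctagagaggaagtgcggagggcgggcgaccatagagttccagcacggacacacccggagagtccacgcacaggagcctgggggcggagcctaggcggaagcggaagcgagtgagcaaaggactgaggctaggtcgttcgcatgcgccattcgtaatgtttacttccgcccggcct

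A match is a description of letters and says nothing of binding, and a window without one says only that those letters are not in it. The dinucleotide CG occurred 32 times in the Tfb2m window and 21 times in that of Polrmt, with 7 in the first window of Twnk as the lowest value of the set, against a median of 7 over all windows.

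Among the replication genes, the polymerase subunits and the helicase stood level or slightly higher with CCCP, and the single-stranded DNA binding protein stood lower, none of them past the test. Polg (chromosome 7, 79446231 to 79467911 on mm10) encodes the catalytic subunit of DNA polymerase gamma. It stood at 63.1 and 69.8 CPM without treatment and at 66.0 and 74.6 CPM with CCCP. The ranges of the groups overlapped, and replicate 2 was the higher library in each. The log2 fold change was 0.08 (SE 0.126, 95% interval -0.22 to 0.39, edgeR adjusted p 0.785). It was 0.35 with the trend of level with exon length removed, Polg having the longest merged exons of the 10 genes.

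Polg2 (chromosome 11, 106768204 to 106779537) encodes the accessory subunit that makes the polymerase processive. Its reads numbered 257 and 174 without treatment and 265 and 176 with CCCP, the fewest of the 10 genes. Scaled, these were 5.13, 4.65, 5.46 and 4.85 CPM. The exact Poisson intervals of all 4 overlapped, from 3.99 CPM at the lowest bound to 6.16 CPM at the highest, and cover counting error only. Its log2 fold change of 0.08 had the widest interval of the set, -0.52 to 0.67 (edgeR adjusted p 0.907). Per length, the ratio of Polg to Polg2 was 3.34 and 4.09 without treatment and 3.29 and 4.19 with it, so the replicates differed more than the groups.

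Twnk (chromosome 19, 45005663 to 45012764) encodes the Twinkle helicase, which unwinds the circle ahead of the polymerase. It had 45.3 and 49.5 CPM without treatment and 50.9 and 53.7 CPM with CCCP. Both CCCP libraries were above both untreated ones, by a margin between the nearest libraries that was smaller than the gap between the untreated pair. Its log2 fold change was 0.14 (SE 0.119, 95% interval -0.15 to 0.43, edgeR adjusted p 0.596).

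Ssbp1 (chromosome 6, 40471414 to 40481823) encodes the protein that coats the displaced single strand. It stood at 41.0 and 51.3 CPM without treatment and at 37.1 and 40.3 CPM with CCCP. The CCCP libraries were the lower ones, but CCCP replicate 2 lay within 1 CPM of untreated replicate 1. The log2 fold change was -0.25 (SE 0.151, 95% interval -0.62 to 0.12), with an edgeR adjusted p of 0.474. Leaving out untreated replicate 1 gave -0.40 and leaving out untreated replicate 2 gave -0.051, so its size depended on the untreated library that was kept. Relative to Twnk, per length, Ssbp1 stood at 1.43 and 1.64 without treatment and at 1.15 and 1.19 with CCCP, and the groups did not overlap in this ratio, which does not depend on library scaling. The ratio does carry any trend with GC content, which in the longest GENCODE transcript is 41.0% for Ssbp1 and 53.2% for Twnk. With that trend removed, their log2 fold changes were 0.067 and 0.072.

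Among the transcription genes, the polymerase stood slightly higher, TFAM did not move beyond its own spread, and the initiation factor and the terminator-family gene stood lower, again with none past the test. Tfam (chromosome 10, 71225468 to 71238328) encodes the packaging and promoter-bending factor whose amount is known to follow the copy number of the genome. It had 56.3 and 78.7 CPM without treatment and 64.5 and 65.3 CPM with CCCP. The CCCP libraries were nearly equal and both lay between the untreated ones, which were 0.48 apart on the log2 scale. The log2 fold change was -0.06 (SE 0.175, 95% interval -0.48 to 0.37, edgeR adjusted p 0.905). Leaving out untreated replicate 1 gave -0.27 and leaving out untreated replicate 2 gave 0.24, so that the sign was set by the untreated library that was kept.

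Polrmt (chromosome 10, 79736125 to 79746604) encodes the mitochondrial RNA polymerase, which also makes primers for replication. It had 39.0 and 39.3 CPM without treatment and 44.4 and 41.7 CPM with CCCP. The untreated pair was the tightest of any machinery gene, and both CCCP libraries were above it. The log2 fold change was 0.14 (SE 0.118, 95% interval -0.15 to 0.43, edgeR adjusted p 0.604), and it was 0.0048 once the trend of level with GC content was removed.

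Tfb2m (chromosome 1, 179528052 to 179546305) encodes the factor that opens the promoter with the polymerase. It had 13.7 and 16.0 CPM without treatment and 12.9 and 13.6 CPM with CCCP. The groups did not overlap, though untreated replicate 1 and CCCP replicate 2 were nearly equal, and the log2 fold change was -0.17 (SE 0.180, 95% interval -0.60 to 0.27, edgeR adjusted p 0.684). Its ratio to Polrmt, per length, was 0.478 and 0.552 without treatment and 0.393 and 0.443 with CCCP, again without overlap. The GC content of the longest GENCODE transcript is 42.5% for Tfb2m and 60.5% for Polrmt. With the GC trend removed, their log2 fold changes were 0.090 and 0.0048.

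Tfb1m (chromosome 17, 3519250 to 3557796) encodes the related protein that methylates the small ribosomal RNA of the mitochondrion and is not needed for initiation. It had 11.9 and 15.4 CPM without treatment and 13.8 and 13.7 CPM with CCCP. As for Tfam, the CCCP libraries lay between the untreated ones, and the log2 fold change of 0.02 (SE 0.200, 95% interval -0.47 to 0.50, edgeR adjusted p 0.977) changed sign with the library left out, from -0.15 without untreated replicate 1 to 0.25 without untreated replicate 2. The ratio of Tfb2m to Tfb1m was 0.687 and 0.617 without treatment and 0.552 and 0.588 with CCCP.

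Mterf3 (chromosome 13, 66906577 to 66933083) encodes a member of the termination factor family that is known to restrain transcription and to take part in ribosome assembly. It had 27.9 and 25.9 CPM without treatment and 22.5 and 23.8 CPM with CCCP. Both CCCP libraries were below both untreated ones, and the group difference exceeded the gap within either pair. The log2 fold change was -0.22 (SE 0.141, 95% interval -0.56 to 0.13, edgeR adjusted p 0.507), and with 1 library left out it ran from -0.25 to -0.15.

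Lrpprc (chromosome 17, 84705247 to 84790786) encodes an RNA-binding protein that, with its partner SLIRP, stabilises mitochondrial messenger RNAs and keeps them polyadenylated. It had 121 and 127 CPM without treatment and 119 and 127 CPM with CCCP. The groups overlapped, and replicate 2 was the higher library in each. Its log2 fold change was -0.02 (SE 0.113), and its interval, from 0.817-fold to 1.19-fold, was the narrowest of the 10 genes (edgeR adjusted p 0.954). The sign was not stable, at -0.056 to 0.052 over the fits that left out 1 library. Slirp itself had 9.47 and 10.6 CPM without treatment and 10.1 and 12.3 CPM with CCCP (log2 fold change 0.16, edgeR adjusted p 0.746), and the ratio of Lrpprc to Slirp per length went from 1.16 and 1.09 to 1.07 and 0.936.

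Of 7 such ratios between partners computed per length, 4 did not overlap between the groups: those of Ssbp1 to Twnk, Tfb2m to Polrmt, Tfb2m to Tfb1m and Lrpprc to Slirp. Among all single genes 48.8% did not overlap, a share close to that of these ratios, and none was computed for other pairs of genes. The smallest two-sided p that an exact permutation test can give with 2 libraries a group is 0.333, so these ratios are given without a test. In 7 of the 10 genes the gap between the replicates of a group, taken as the larger of the 2 groups' gaps on the log2 scale, was wider than the log2 fold change; the exceptions were Polrmt, Mterf3 and Twnk. Untreated replicate 2 was above untreated replicate 1 in 8 of the 10 genes, and CCCP replicate 2 above CCCP replicate 1 in 7. The median gap was 0.14 in the untreated group and 0.086 in the CCCP group. Summed over the 10 genes, the level was 424 and 478 CPM without treatment and 436 and 458 CPM with CCCP, the CCCP libraries lying between the untreated ones.

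The order of the fold changes within the set followed the GC content of the longest GENCODE transcripts. These differ from the exons that were counted, as for Ssbp1 (4398 against 2647 bases) and Mterf3 (2353 against 4023). Polrmt, at 60.5% GC in its longest GENCODE transcript, Twnk at 53.2% and Polg at 52.7% had log2 fold changes of 0.14, 0.14 and 0.08. Ssbp1 at 41.0%, Mterf3 at 42.1% and Tfb2m at 42.5% had -0.25, -0.22 and -0.17. Across the 10 genes Pearson's r between the log2 fold change and GC content was 0.815 and Spearman's rho 0.927, as a description of genes that share the same 4 libraries. The same relation held more loosely across the 17929 genes with a known GC content, with a rho of 0.374. Genes below 44% GC had a median of -0.28, and those from 56% upward a median of 0.18. When the trend with GC content was removed from each library, all 10 machinery genes had a log2 fold change above 0, from 0.0048 for Polrmt to 0.27 for Tfb1m, and none passed the edgeR test (lowest adjusted p 0.611). The median over all genes was itself 0.031 in that fit, and Polrmt and Polg (0.019) lay below it. The values of Ssbp1, Mterf3 and Tfb2m then stood at 0.067, 0.057 and 0.090. With exon length the relation across the 10 genes was weaker, with a rho of 0.321, whereas across all 19837 genes tested it had the opposite sign, with a rho of -0.350. The part of base composition in these differences was not tested beyond that fit.

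**Figure D4:**
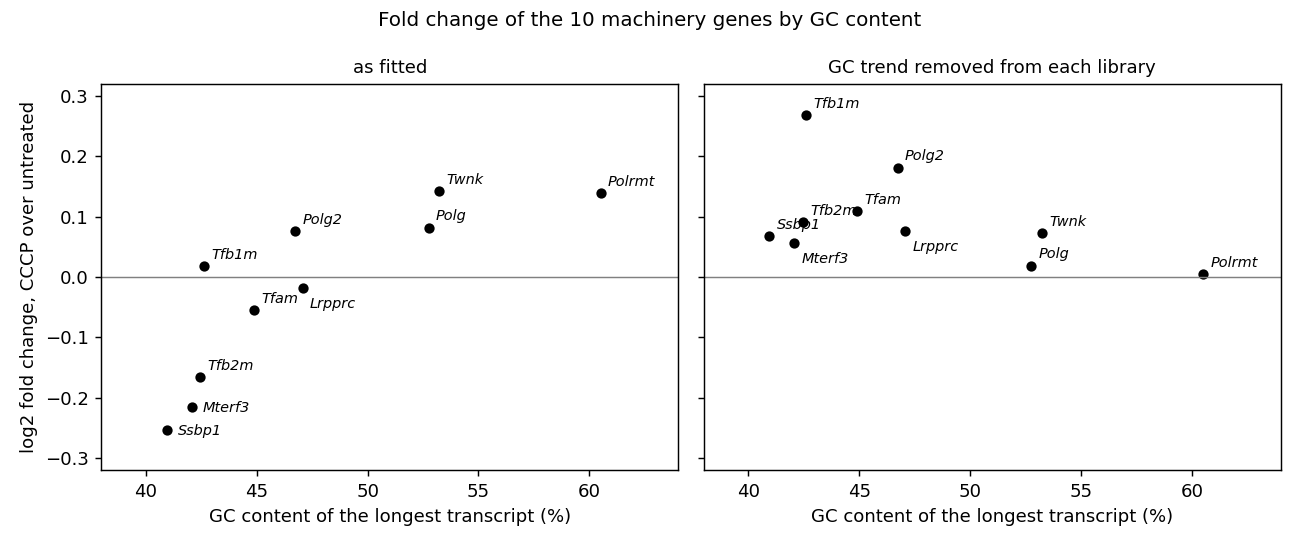
Log2 fold change of CCCP over untreated (vertical axis) against the GC content of the longest GENCODE transcript (horizontal axis) for the 10 machinery genes, as fitted (left) and with the GC trend removed from each library (right). On the left the genes run from Ssbp1 at 41.0% GC and -0.25 to Polrmt at 60.5% and 0.14. On the right all 10 lie above 0, where the median over all genes tested was 0.031.

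The genes known to regulate this set held 0 of 11 past the edgeR test at an adjusted p under 0.05, with 2 of 11 at an unadjusted p under 0.05, both lower, and in DESeq2 also 0 of 11 were called. Over all genes 14.6% had an unadjusted p under 0.05 and 2.99% were called in DESeq2, and the counts of this list and of those that follow are to be read against these shares. Nrf1, nuclear respiratory factor 1, whose letters lie in the Polrmt window, had 65.0 and 70.0 CPM without treatment and 68.8 and 67.8 CPM with CCCP, with a log2 fold change of 0.02 (edgeR adjusted p 0.958). Gabpa, the DNA-binding subunit of the GA-binding protein, had 79.8 and 84.0 CPM without treatment and 57.6 and 67.2 CPM with CCCP. Both CCCP libraries were below both untreated ones, and the log2 fold change of -0.39 (SE 0.127) had an edgeR adjusted p of 0.276. Its transcript is 41.4% GC, and the value was -0.092 in the fit with the GC trend removed. Beside it, the 6 genes with that core had log2 fold changes from -0.25 to 0.14, and the 3 genes with a window but no core from -0.17 to 0.02. Ppargc1a, the coactivator PGC-1 alpha, had 6.83 and 5.99 CPM without treatment and 3.94 and 5.02 CPM with CCCP (log2 fold change -0.52, edgeR adjusted p 0.399). Esrra, the estrogen-related receptor alpha, had the smallest p among regulators above 0, with a log2 fold change of 0.22 (edgeR adjusted p 0.559).

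Other proteins of replication and of the nucleoid held 0 of 13 past the edgeR test, with 1 at an unadjusted p under 0.05, and 0 in DESeq2. The median log2 fold change was 0.23, against -0.0077 over all genes. Both CCCP libraries were above both untreated ones for 8 of 13 and below them for 1 (24.0% and 24.8% of all genes). GC content in this list ran from 42.8% for Primpol to 64.3% for Endog, and its part in the median was not tested. Counts above and below in the other lists were 0 and 4 of 11 regulators and 7 and 2 of 13 nucleotide supply genes. They were 0 and 3 of 5 other transcription factors, 7 and 4 of 18 RNA processing genes, and 4 and 1 of 13 mitochondrial messenger RNAs. The medians of these lists were -0.047, 0.17, -0.41, 0.08 and 0.031, in that order. Fen1, a flap endonuclease shared with the nucleus, had 37.2 and 53.4 CPM without treatment and 59.6 and 64.2 CPM with CCCP (log2 fold change 0.45, edgeR adjusted p 0.344). Leaving out untreated replicate 1 gave 0.22 for Fen1, and leaving out untreated replicate 2 gave 0.77. Primpol, a primase-polymerase, had 15.9 and 14.9 CPM against 11.7 and 10.9 CPM with CCCP (-0.45, edgeR adjusted p 0.330). With the GC trend removed, Fen1 stood at 0.37 and Primpol at -0.20. Mgme1, an exonuclease of the mitochondrion, had 14.2 and 18.3 CPM against 17.2 and 15.3 CPM.

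Among 13 genes of mitochondrial nucleotide supply, 0 passed in edgeR, 3 had an unadjusted p under 0.05 (14.6% of all genes) and 1 passed in DESeq2 (2.99% of all genes). That gene was Slc25a36, a pyrimidine nucleotide carrier, with 125 and 113 CPM without treatment and 67.8 and 76.1 CPM with CCCP. Its log2 fold change was -0.72 (SE 0.125), with an adjusted p of 0.149 in edgeR and 0.00163 in DESeq2. It was larger in size than any value among the 10 machinery genes, and its transcript is 40.7% GC. With the GC trend removed it was -0.39 (edgeR adjusted p 0.406). Slc25a4, an exchanger of ADP and ATP, had 290 and 334 CPM without treatment and 417 and 387 CPM with CCCP (0.37, edgeR adjusted p 0.312).

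The 5 other transcription factors of the mitochondrion also held 0 past the edgeR and the DESeq2 test, and 1 at an unadjusted p under 0.05. Tefm, the elongation factor that works with the polymerase, had 8.47 and 10.9 CPM without treatment and 9.44 and 10.53 CPM with CCCP (0.05, edgeR adjusted p 0.937). Mterf1b, a termination factor with a close copy in Mterf1a, so that reads shared by both were not counted, had 2.52 and 2.78 CPM against 1.38 and 1.43 CPM with CCCP (-0.91, edgeR adjusted p 0.303). Mterf4, which acts with a ribosomal RNA methyltransferase, had a log2 fold change of 0.13.

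In the list of RNA processing and decay, 0 of 18 passed in edgeR or DESeq2, 1 had an unadjusted p under 0.05, and the median was 0.08. Hsd17b10, a subunit of the enzyme that trims transfer RNAs, had 49.2 and 64.2 CPM without treatment and 69.2 and 75.6 CPM with CCCP (0.35, edgeR adjusted p 0.366), with 0.18 when untreated replicate 1 was left out and 0.59 when untreated replicate 2 was. Pnpt1, an RNA exonuclease, had 41.0 and 50.9 CPM against 31.8 and 37.9 CPM (-0.40, edgeR adjusted p 0.342; -0.022 with the GC trend removed), with -0.54 when untreated replicate 1 was left out and -0.20 when untreated replicate 2 was. The genes whose pattern over the 4 libraries was nearest to that of Tfam among the 73 related genes, by Euclidean distance in centred log2 CPM, were Prorp (0.109), Pde12 (0.133) and Mgme1 (0.160). Like Tfam, all 3 stood highest in untreated replicate 2 and lowest in untreated replicate 1. The choice by distance over the same 4 libraries selects for that likeness.

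**Figure D5:**
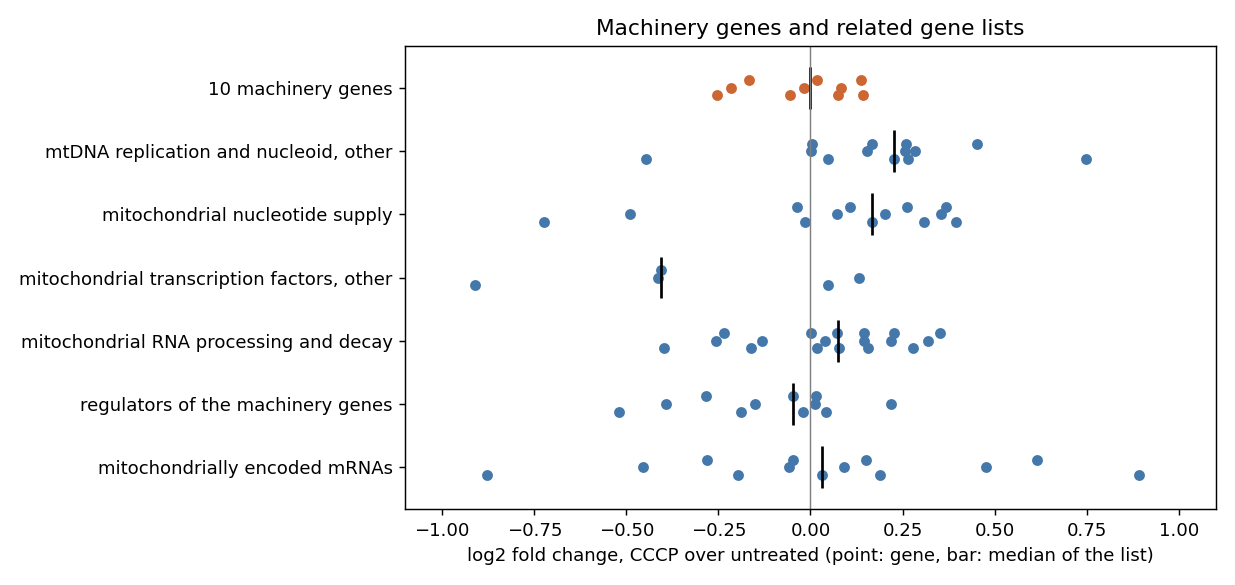
Log2 fold change of CCCP over untreated (horizontal axis) for the 10 machinery genes and for each gene of the related lists, with a bar at the median of each list. The machinery genes span -0.25 to 0.14, and Mterf1b at -0.91 and COX3 at 0.89 mark the ends of the related genes.

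The products of the machinery, the 13 messenger RNAs encoded by the mitochondrial genome, took 2.09% and 1.93% of all counts without treatment and 1.99% and 1.83% with CCCP. They were counted very unequally. Without treatment COX1 stood at 8097 and 8714 CPM, COX2, COX3 and ATP6 between 6.93 and 22.8 CPM, and ND3, ND4L and ATP8 between 0.53 and 2.81 CPM. The share therefore rests on the well counted genes and is not a measure of all 13. None passed in edgeR (0 of 13, with 1 at an unadjusted p under 0.05), and in DESeq2 COX3 passed. COX3, on 433 to 1086 counts per library, had a log2 fold change of 0.89 (edgeR adjusted p 0.248, DESeq2 adjusted p 0.0474). Its level is uncertain because any reads shared with nuclear copies of the genome were not counted. The part of such reads in its level was not tested. ND5, at 2574 and 2158 CPM without treatment and 1924 and 1526 CPM with CCCP, had -0.46 (edgeR adjusted p 0.346), or -0.63 to -0.29 with 1 library left out.

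The counting set limits that touch 5 of the 10 genes. Strand was not used, and reads that touched more than 1 gene were dropped, so exon bases shared with a gene on the opposite strand could not be counted. This was the case for 385 bases of Twnk shared with Mrpl43 (9.21% of its exon length), 148 of Tfb1m with Tiam2 (8.74%), 665 of Polg with Fanci (6.75%), 254 of Mterf3 with Ptdss1 (6.31%) and 132 of Polg2 with Milr1 (4.92%). Tfam, Polrmt, Tfb2m, Ssbp1 and Lrpprc overlapped no other annotated gene.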

How the data were processed

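The deposited values are raw read counts of each gene, which the authors obtained with featureCounts 2.0.3 on exons of the mm10 RefSeq annotation, per the file headers, with no strand, multi-mapping or overlap option and no option to count a pair once. HISAT2, SAMtools and Subread are named, without versions, per the submitters' processing notes. The merged exon length per gene is also deposited. Library totals were 48216849, 37360968, 48827826 and 37579087 reads (untreated 1 and 2, CCCP 1 and 2). Groups came from the sample titles.

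All genes were fitted with edgeR 4.0.16 in R 4.3.3 (quasi-likelihood, TMM, filterByExpr with a minimum count of 10 and total of 15, group alone, two-sided, Benjamini-Hochberg over 19837 genes, threshold 0.05), and all 10 machinery genes passed the filter. The SE is the log2 fold change over the root of F, and intervals are 95%. DESeq2 1.42.0 and other scalings, filters, blocks and left-out libraries served as alternatives. GC content, known for 90.4% of genes tested, came from GENCODE M21 transcripts; trends were lowess fits per library. Scripts were tested on simulated data. Genes named beside the 10 were, per related list, the smallest p in each direction, the 3 nearest to Tfam and 5 set for their roles. The genes and lists were chosen with earlier results of these data known. Motifs were chosen once promoter windows had been read.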

Additional observations from a re-analysis of the deposited data

How the results depend on the processing

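No machinery gene was called in 12 of 13 alternative fits, with Polg the exception in the remaining fit. The count of machinery genes called was 1 with the replicate block and the length trend removed (Polg, 0.35, edgeR adjusted p 0.0424, where 8.15% of all genes were called), and its adjusted p ran up to 1.0 over the alternatives. Libraries with the same number shifted together (correlation of their deviations 0.36), but the labels do not tell what the number stands for, so the pairing is not taken from the design. Over all genes the count called went from 0 to 2118 with the replicate block, 1616 with the block plus length correction, 1297 with the block plus GC correction, 594 in DESeq2, 1107 without the filter, and 10 to 46 with 1 library left out, where the lone library is assumed to vary like the others. Among related genes the count was 6 with the block (Gabpa, adjusted p 0.0346; Fen1, 0.0294; Pnpt1, 0.0462; ND5, 0.0245; COX3, 0.0184; Slc25a36, 0.00222), 7 with the length trend also removed (ND6, ND5, COX3, Fen1, Pnpt1, Slc25a36 and Nrf1) and 4 with the GC trend also removed (ND5, COX3, Polb and Suclg1), 2 in DESeq2 (COX3 and Slc25a36) and 2 without the filter. Signs of 7 of the 10 machinery genes changed in at least 1 alternative, and those of Polrmt, Polg and Twnk in none, though Polg stood at 1.3e-05 without CCCP replicate 2. Removing the GC trend shifted the median over all genes to 0.031, or to 0.034 with the replicate block as well. Tfam then stood at 0.11, Tfb2m at 0.090, Mterf3 at 0.057, Ssbp1 at 0.067 and Lrpprc at 0.076. With the replicate block as well these were 0.13, 0.094, 0.057, 0.076 and 0.076. With the length trend removed, Tfb1m stood at -0.10, Lrpprc at 0.052, Slirp at -0.041, Tefm at -0.045, Prorp at -0.014, Mgme1 at -0.033 and Mterf4 at -0.016. With the replicate block as well, Tfam stood at 4.2e-05, Tfb1m at -0.094, Lrpprc at 0.053, Slirp at -0.041, Tefm at -0.040, Prorp at -0.0037, Mgme1 at -0.024 and Mterf4 at -0.018. With totals alone as the scale, which shifts the median over all genes to -0.066, Tfb1m stood at -0.037, Tefm at -0.0082, Nrf1 at -0.041, Prorp at -0.036, Pde12 at -0.054 and Mgme1 at -0.053. With 1 library left out, values ran from -0.27 to 0.24 for Tfam, -0.15 to 0.25 for Tfb1m, -0.0069 to 0.17 for Polg2, -0.056 to 0.052 for Lrpprc, -0.11 to 0.27 for Tefm, -0.027 to 0.10 for Nrf1, -0.14 to 0.24 for Prorp, -0.15 to 0.21 for Pde12 and -0.16 to 0.23 for Mgme1. The cause of these shifts was not tested. At 174 to 265 counts per library, Polg2 was the machinery gene most limited by depth.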
